A study of Mus musculus with 4 samples.

Results

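Bone marrow stroma that carries the leptin receptor holds part of the gene program of fat cells, and 10 genes of that program were followed through a lymphoma graft. They were Lepr, Adipoq, Lpl, Hp, Cebpa, Cebpb, Cebpd, Pparg, Apoe and Gas6, taken by symbol from the 32285 genes of the files, and all 10 were found in all 4 libraries. Their levels were read in 4 classes of cells, which were gated on markers that include none of the 10. The libraries were 3-prime single-cell RNA libraries of sorted femur marrow cells from Rag2-/-gammac-/- C57BL/6 mice, which lack B, T and NK cells. Cells were depleted of blood cells and sorted as Cd51+ Cd200+ stroma and Cd31+ Sca1+ endothelium. The libraries came from an ungrafted mouse group (Ctrl), a group injected with PBS and taken at day 40 (Sham_D40), and groups given DOHH2 cells in the femur and taken at day 19 (Graft_D19) or day 40 (Graft_D40). DOHH2 is a cell line of human follicular lymphoma B cells. The age of the mice and the number pooled per library were not given in the sources used here. Each group had 1 library, so no difference was tested, and every interval given here is a 95% interval of counting error only. Animal, day and library preparation cannot be told apart from the group.

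LepR stroma surrounds the marrow sinusoids and feeds blood stem cells with Cxcl12 and Kitl. It is also the source of marrow fat cells. In fat cell formation the transcription factors Cebpb and Cebpd act early and are followed by Cebpa and Pparg, which switch on products such as Adipoq and Lpl. LepR stroma makes several of these products without holding fat droplets.

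The LepR-gated class was cut from the cells whose score over 10 markers (Cxcl12, Kitl, Ebf3, Foxc1, Cxcl14, Esm1, Vcam1, Grem1, Chrdl1 and Il7) reached 0.4. Cells of that gate with 10 or more Col8a1 UMIs per 10000 formed a separate Col8a1-high class. Col8a1 encodes a short-chain collagen. Osteolineage-gated cells were cut on 9 markers of bone-forming cells and fibroblast-gated cells on 12 markers of fibroblasts. The LepR-gated class held 1684 cells in Ctrl and 1984 in Sham_D40, and 1493 in Graft_D19 and 584 in Graft_D40. The Col8a1-high class held 91, 193, 352 and 680 cells in that order, which was 5.13%, 8.87%, 19.08% and 53.8% of the pool of both classes. Osteolineage-gated cells numbered 183, 252, 351 and 287, and fibroblast-gated cells 48, 215, 107 and 163. The cuts were set with the cells in view, and cells near them were many. Within 0.05 of the LepR score cut lay 204, 88, 193 and 252 cells in the same order of libraries. Near the osteolineage cut lay 291 to 517 cells per library, more than that class held. From 112 to 196 pool cells per library lay between 8 and 12 Col8a1 UMIs per 10000, and ungated cells made up 15.5% of Graft_D40 and 4.37% to 8.17% of the other libraries. Ungated cells included a cluster of 158 cells in Graft_D40 and 0 to 12 in the others, with a mean of 13.99 Col8a1 UMIs per 10000. The gate markers themselves, on which the classes were cut, were 5.07 to 13.8 times as high in LepR-gated cells as in the other cells. Different clusters, built without the 10 genes, filled the classes in different libraries. Cluster 14 held 83.2% of Col8a1-high cells and 58.6% of LepR-gated cells in Graft_D40, and 49.7% and 21.5% in Graft_D19. In Sham_D40 cluster 3 held the most, 40.9% and 53.3%, and in Ctrl cluster 2, 35.2% and 68.9%. The part of this in the results was not tested.

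The 4 libraries kept 4074 to 4867 cells after filtering, with a median of 3549 UMIs per cell in Ctrl and 8606 to 9796 in the others. Between 11 and 15 barcodes were shared by any 2 libraries. Markers of blood cells summed to 42.9 to 126 CPM (UMIs of a gene per 1000000 UMIs of the class) in LepR-gated cells. Haemoglobin and other red cell genes were at 864 CPM in Ctrl and 241 in Sham_D40, and 143 in Graft_D19 and 34.5 in Graft_D40, and their part in the results below was not tested. Of 7 markers of mature fat cells, Adig and Lep had 0 UMIs in LepR-gated cells of all 4 libraries. The list summed to 359.5, 187.6, 117.2 and 122.7 CPM there, and Fabp4 gave 186.8 of the 187.6 in Sham_D40. Endothelium had far more of it, 17228, 9796, 6708 and 5444 CPM. Cartilage markers summed to 70.2, 273.9, 305.5 and 420.8 CPM in LepR-gated cells, and their part in the results was not tested.

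At day 40 the graft library had less RNA of secreted and lipid-handling products of LepR stroma than Sham_D40. Between those libraries the receptor that names these cells and the factors Cebpa, Cebpb and Pparg were not called different. The factor Cebpd was called lower in Col8a1-high cells. A member was called when its CPM differed 1.5-fold or more with a counting interval off 1. In LepR-gated cells Adipoq, Lpl, Apoe and Gas6 were called lower in Graft_D40 than in Sham_D40, and none was called higher. That is 4 of 10 members, against 3.42% of 10597 measured genes called lower and 5.64% called higher. In Col8a1-high cells 6 of 10 were called lower, the same 4 with Hp and Cebpd, and none was called higher, against 5.61% and 8.54% of genes. Against Ctrl, Adipoq, Hp, Cebpb and Apoe were called lower and Cebpa higher in LepR-gated cells of Graft_D40, while Lpl and Gas6 were not called. That is 4 members lower and 1 higher, where 9.94% of genes were lower and 32.6% higher. Adipoq and Apoe were the 2 lower by both comparators. In Col8a1-high cells 6 were lower and 0 higher against Ctrl, beside 7.03% and 11% of genes, and 5 of them, all but Cebpb, were also lower against Sham_D40. The median log2 ratio of the members was -0.46 in LepR-gated cells, where that of all measured genes was 0.08, and -0.75 in Col8a1-high cells, where that of all genes was 0.06.

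**Figure D1:**
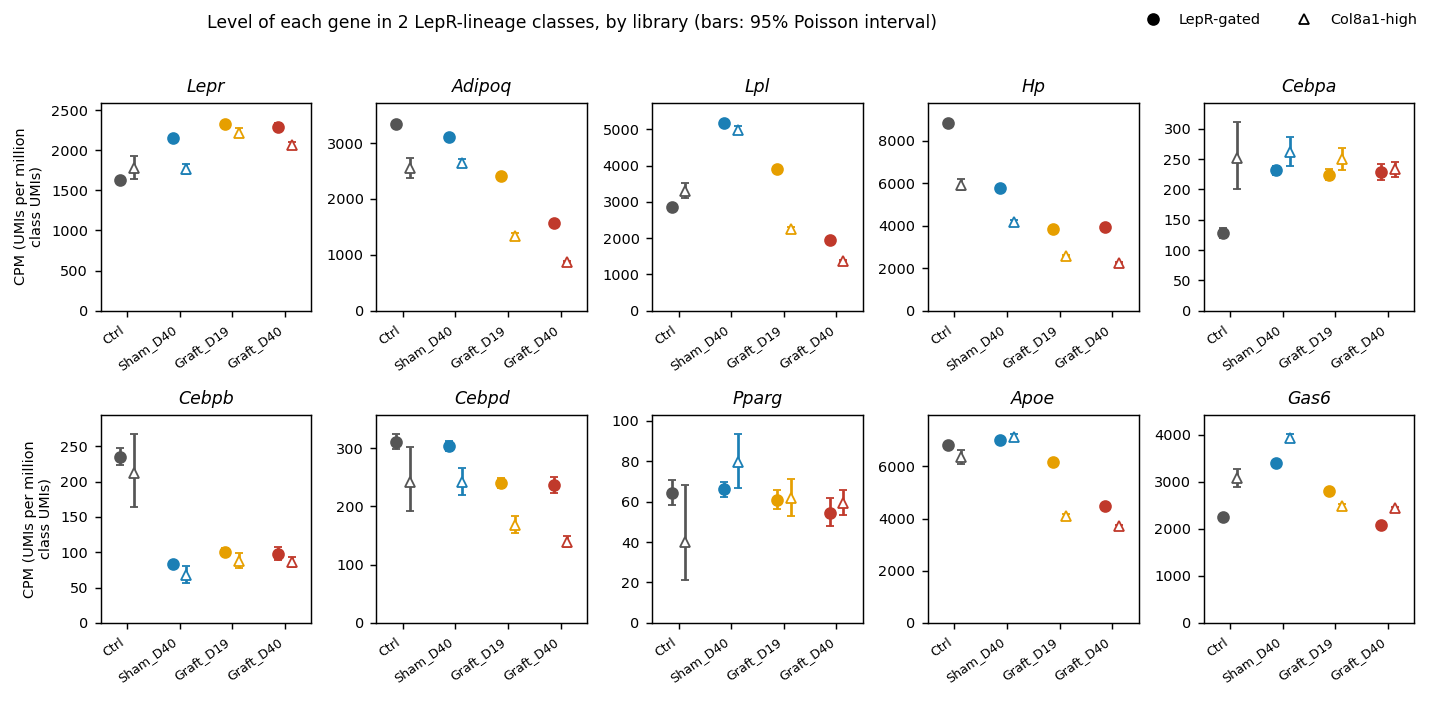
CPM of each of the 10 genes (vertical axis, from 0) in LepR-gated cells (filled circles) and Col8a1-high cells (open triangles) of the 4 libraries (horizontal axis), with 95% Poisson intervals. Adipoq is lowest in Graft_D40 in both classes, at 1571 and 873 CPM, whereas Lepr lies between 1626 and 2330 CPM in all 8 values.

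Adipoq encodes adiponectin, a hormone secreted by fat cells and by LepR stroma. Its level in LepR-gated cells was 3342 CPM in Ctrl and 3116 in Sham_D40, and 2406 in Graft_D19 and 1571 in Graft_D40. Both ungrafted libraries were above both grafts. Graft_D40 was 1.98-fold (1.94 to 2.03) below Sham_D40, and 2.13-fold below Ctrl. In Col8a1-high cells Adipoq was at 2550, 2641, 1345 and 873 CPM in the same order, so that Graft_D40 was 3.03-fold (2.91 to 3.15) below Sham_D40. The 2 ungrafted libraries differed little, with a ratio of Sham_D40 to Ctrl of 0.932 in LepR-gated and 1.04 in Col8a1-high cells. Counted per cell after thinning each cell to 2000 UMIs, Adipoq had no UMI in 2.83% of LepR-gated cells of Ctrl and 4.80% in Sham_D40, and 11.3% in Graft_D19 and 19.1% in Graft_D40. In Col8a1-high cells those shares were 8.86%, 12.4%, 22.0% and 35.2%. Endothelium, which should lack Adipoq, had a UMI of it at the same depth in 7.07%, 5.66%, 4.30% and 2.15% of cells. More cells without detected Adipoq thus came with the lower level.

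Lpl encodes lipoprotein lipase, which frees fatty acids from circulating triglycerides. In LepR-gated cells it was at 2858.5 CPM in Ctrl and 5184 in Sham_D40, and 3915 in Graft_D19 and 1944 in Graft_D40. Here the 2 ungrafted libraries were far apart, with Sham_D40 1.81 times as high as Ctrl. Graft_D40 was 2.67-fold (2.61 to 2.73) below Sham_D40 but only 1.47-fold below Ctrl, where it was not called. In Col8a1-high cells Lpl was at 3313, 4987, 2252 and 1365 CPM. There Graft_D40 was below both ungrafted libraries, 3.65-fold (3.55 to 3.76) under Sham_D40 and 2.43-fold under Ctrl. In thinned LepR-gated cells the share with an Lpl UMI was 92.6%, 98.6%, 93.4% and 81.2%, against 28.3%, 35.4%, 22.1% and 15.8% of endothelial cells. Graft_D40 had the lowest share in both.

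Apoe, the carrier protein of cholesterol-rich particles, was at 6802 CPM in Ctrl and 7004 in Sham_D40, and 6152 in Graft_D19 and 4485 in Graft_D40 in LepR-gated cells. In Col8a1-high cells it was at 6341, 7122, 4109 and 3695 CPM. Graft_D40 was 1.56-fold (1.54 to 1.59) below Sham_D40 in the first class and 1.93-fold (1.89 to 1.97) in the second, and it was called lower than Ctrl as well, 1.52-fold and 1.72-fold. Gas6, the ligand of the receptor tyrosine kinases Axl, Tyro3 and Mertk, was at 2258, 3392, 2814 and 2083 CPM in LepR-gated cells. Its 1.63-fold (1.59 to 1.66) difference between Graft_D40 and Sham_D40 was not found against Ctrl, which Graft_D40 was below by 1.08-fold. In Col8a1-high cells Gas6 was at 3077, 3929, 2482 and 2434 CPM, with Graft_D40 1.61-fold below Sham_D40 and 1.26-fold below Ctrl, the latter not called.

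Hp encodes haptoglobin, which binds free haemoglobin and is made by liver in the acute phase and by fat cells. It was highest in Ctrl, at 8825 CPM in LepR-gated cells, and was at 5792.5 in Sham_D40, and both grafts were lower, Graft_D19 at 3817 and Graft_D40 at 3913. Sham_D40 and Ctrl already differed 1.52-fold. The 1.48-fold (1.46 to 1.504) difference between Graft_D40 and Sham_D40 stayed just under the threshold in this class. In Col8a1-high cells Hp was at 5924, 4156, 2576 and 2251 CPM and was 1.85-fold (1.80 to 1.90) lower in Graft_D40 than in Sham_D40. Of 9 measured genes of an acute-phase list of 14, Serpina3n and Lrg1 were called lower in LepR-gated cells of Graft_D40 than of Sham_D40. None was higher, beside 3.42% of all genes lower and 5.64% higher. Serpina3n, a protease inhibitor, was at 161.5 CPM in Graft_D40 and 304.4 in Sham_D40. In Col8a1-high cells 4 of 9 were lower and 1 higher than in Sham_D40, with a median log2 ratio of -0.53, beside 5.61% and 8.54% of genes. Against Ctrl, 3 of 10 were lower and 2 higher in LepR-gated cells, with a median of -0.09, beside 9.94% and 32.6% of genes. In Col8a1-high cells 4 of 9 were lower than in Ctrl and 0 higher, with a median of -0.37, beside 7.03% and 11%.

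Of the transcription factors, Cebpa, Cebpb and Pparg were not called between Graft_D40 and Sham_D40 in these 2 classes, and Cebpd was called lower in Col8a1-high cells. Cebpa was at 127.8 CPM in LepR-gated cells of Ctrl and 231.5 in Sham_D40, and 224.4 in Graft_D19 and 228.5 in Graft_D40, and Graft_D40 over Sham_D40 was 0.987 (0.922 to 1.06). Cebpa was thus low in Ctrl and alike in the other 3 libraries. Pparg, the receptor that drives fat cell formation, was at 64.3, 66.0, 60.9 and 54.4 CPM, with a ratio of 0.825 (0.717 to 0.946). In Col8a1-high cells Cebpa was at 251.3, 261.5, 249.6 and 232.9 CPM and Pparg at 39.8, 79.4, 61.6 and 59.5 CPM. The Ctrl value of Pparg in that class comes from 13 UMIs. Detection was sparse for both factors. After thinning, 21.8%, 34.4%, 32.9% and 33.5% of LepR-gated cells had a Cebpa UMI, and 1.16% to 2.75% of endothelial cells. Endothelium was the class with more Pparg, at 394 CPM in Ctrl and 285 in Sham_D40, and 237 in Graft_D19 and 89.2 in Graft_D40.

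Cebpb stood apart from the other members by library. It was at 235.4 CPM in LepR-gated cells of Ctrl and 83.3 in Sham_D40, and 100.1 in Graft_D19 and 97.6 in Graft_D40. Ctrl was also highest in Col8a1-high cells at 211.5 CPM, in osteolineage-gated cells at 280.4, in fibroblast-gated cells at 138.3 and in endothelium at 203.5. In the other 3 libraries Cebpb lay between 38.8 and 100.1 CPM over the 4 stromal classes. The call of Cebpb as 2.35-fold lower in Graft_D19 than in Ctrl was also made between the ungrafted libraries, Sham_D40 being 2.83-fold lower than Ctrl. After thinning, 35.2% of LepR-gated cells had a Cebpb UMI in Ctrl and 12.6% to 15.8% in the other libraries. The immediate early list, which marks stress of cell isolation, summed to 2319, 3942, 5280 and 4524 CPM in LepR-gated cells, lowest in Ctrl. In endothelium it was highest in Ctrl, at 7189, 6784, 5494 and 3774 CPM, and in osteolineage-gated cells it was at 4675, 3904.5, 5467 and 2475 CPM. Its part in the Cebpb values was not tested. Cebpd was at 311.3, 303.8, 240.3 and 236.7 CPM in LepR-gated cells and at 242.1, 242.6, 168.9 and 138.9 CPM in Col8a1-high cells. In the latter Graft_D40 was 1.75-fold (1.55 to 1.96) below Sham_D40. Without cells above the 75th percentile of immediate early share the log2 ratio of Cebpd there was -0.42, and the call ended. Cebpb overlaps Tmem189 and Cebpd overlaps Spidr on the opposite strand, and the strand setting of the count was not given in the sources used here.

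The start-site regions of 2 members are shown because the factor Pparg and the product Adipoq differed in their pattern over the libraries. Sequences are from RefSeq on GRCm38.p6, 250 bases ahead of an annotated start, and 7 of the 10 members had entries, with 12 windows. Each was searched on both strands for TTNNGCAA, a C/EBP pattern. Capitals mark matches.
Pparg at the third start site, chr6:115421816-115422065, plus strand: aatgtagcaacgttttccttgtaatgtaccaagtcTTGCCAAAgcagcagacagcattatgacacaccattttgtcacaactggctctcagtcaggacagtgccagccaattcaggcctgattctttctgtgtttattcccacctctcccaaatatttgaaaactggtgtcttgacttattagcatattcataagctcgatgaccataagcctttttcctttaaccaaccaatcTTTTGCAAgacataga
Adipoq, chr16:23146286-23146535, plus strand: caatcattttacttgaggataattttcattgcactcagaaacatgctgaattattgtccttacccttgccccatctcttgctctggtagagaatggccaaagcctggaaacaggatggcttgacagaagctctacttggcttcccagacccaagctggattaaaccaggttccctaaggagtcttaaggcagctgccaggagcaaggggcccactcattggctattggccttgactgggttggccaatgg
The Pparg window was the only 1 of the 12 with a match, and it had 2. A match was found in 9.56% of the 32851 windows in the table, so 1 of 12 is near that share. A link of the matches to RNA levels was not tested. The direct repeat of nuclear receptor half-sites (DR1), searched on both strands, was in 0 of the 12 and in 0.338% of all windows. Adipoq spans chromosome 16 from 23146536 to 23158028 on the plus strand, and Pparg chromosome 6 from 115360951 to 115490399 on the plus strand. The other members lie on chromosome 4 (Lepr, 101717404 to 101815352), 8 (Lpl, 68880491 to 68907448, Hp, 109575128 to 109579172, and Gas6, 13465374 to 13494490), 7 (Cebpa, 35119293 to 35121928, and Apoe, 19696109 to 19699188), 2 (Cebpb, 167688915 to 167690418) and 16 (Cebpd, 15887286 to 15891031).

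Lepr itself was not called in either class. It was at 1626 CPM in LepR-gated cells of Ctrl and 2148 in Sham_D40, and 2330 in Graft_D19 and 2290 in Graft_D40, and at 1778, 1766, 2218 and 2062 CPM in Col8a1-high cells. Graft_D40 over Sham_D40 was 1.07 (1.04 to 1.09) and 1.17 (1.12 to 1.21). The receptor was thus present at a like level in cells whose Adipoq differed 1.98-fold to 3.03-fold. The number of members seen per cell, a count over these same genes, was lower in the grafts. After thinning, the mean number of the 10 members with a UMI in a LepR-gated cell was 6.82 ± 1.0 in Ctrl and 6.81 ± 0.989 in Sham_D40, and 6.55 ± 1.13 in Graft_D19 and 6.26 ± 1.30 in Graft_D40 (SD over cells of 1 library). Cells with 8 or more members made up 23.7%, 22.7%, 18.9% and 13.95%.

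At day 19 only Hp of the members was called against both ungrafted libraries in LepR-gated cells. In LepR-gated cells Hp and Cebpb were called lower and Cebpa higher in Graft_D19 than in Ctrl, against 8.46% of genes lower and 28.5% higher. The median log2 ratio was -0.11 over the members and 0.27 over all genes. Sham_D40 differed from Ctrl as widely, with 11.1% of genes lower and 26.8% higher, and with Hp and Cebpb lower and Lpl, Cebpa and Gas6 higher among the members. Of the 3 calls at day 19, those of Cebpb and Cebpa were also made between the ungrafted libraries and were not made against Sham_D40. Only Hp was called lower against Sham_D40, 1.52-fold, beside 1.88% of genes lower and 2% higher. Sham_D40 was itself 1.52-fold below Ctrl in Hp. Adipoq in LepR-gated cells of Graft_D19 was 1.39-fold below Ctrl and 1.30-fold below Sham_D40, under the threshold both times. Immediate early genes were higher as well, 11 of 15 measured being called higher in Graft_D19 than in Ctrl, and their part in these results was not tested.

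In Col8a1-high cells Adipoq, Hp and Apoe were called lower at day 19 than in both ungrafted libraries. Adipoq, Hp, Cebpb and Apoe were called lower than in Ctrl, 4 of 10 members with 0 higher, against 5.80% of genes lower and 9.59% higher. Adipoq was 1.90-fold below Ctrl and 1.96-fold below Sham_D40, and Apoe 1.54-fold and 1.73-fold. Against Sham_D40, 5 members were lower and 0 higher, the others being Lpl and Gas6, beside 4.34% and 7.03% of genes. Sham_D40 over Ctrl gave 1 member lower, Cebpb, and 2 higher, Lpl and Pparg, against 6.36% and 6.94% of genes. These Ctrl values rest on 91 cells, and 30.2% of the Adipoq UMIs came from the 10 cells richest in it.

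**Figure D2:**
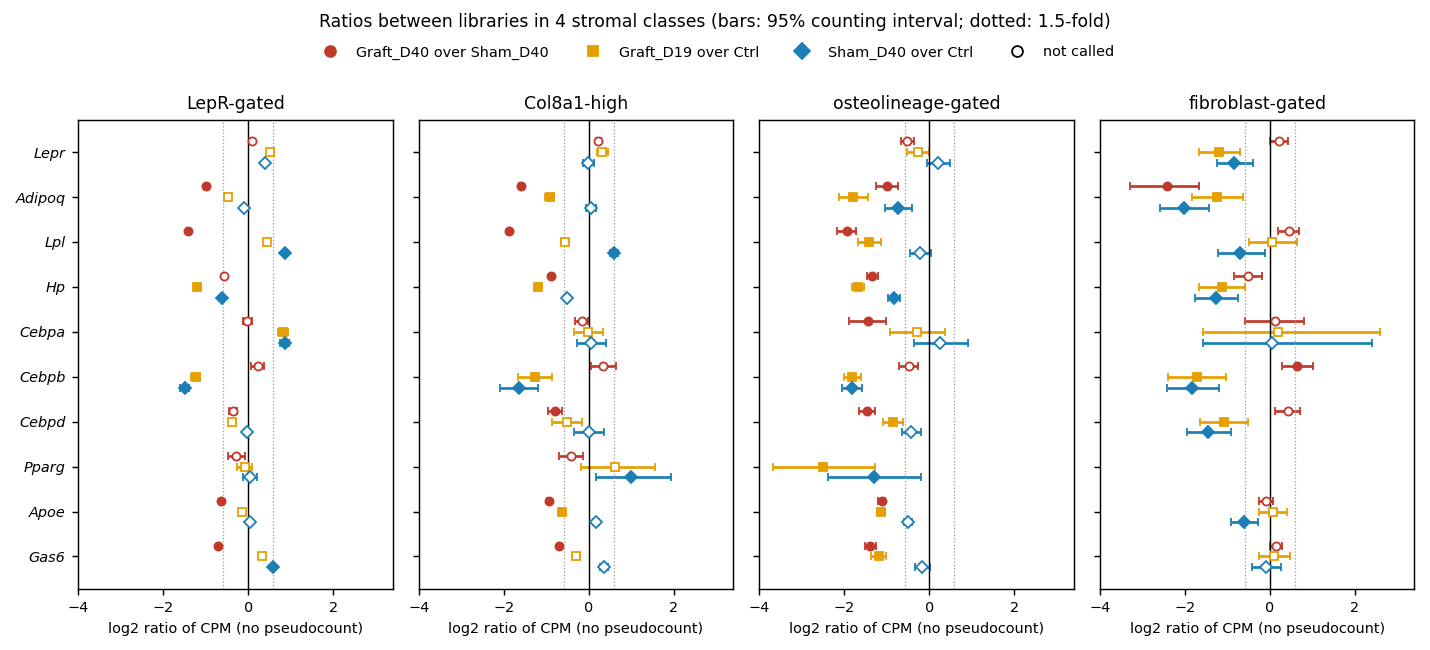
Log2 ratio of CPM (horizontal axis) of each gene (rows) in the 4 classes (panels) for 3 pairs of libraries, with 95% counting intervals; filled symbols are called, open ones not, dotted lines mark 1.5-fold, and genes under 5 CPM are left out. In the first 2 panels the Graft_D40 symbols of Adipoq, Lpl, Apoe and Gas6 lie left of the dotted line, while those of Lepr, Cebpa and Cebpb lie near 0 or to its right.

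The 2 classes of the pool also differed from each other within a library. In Graft_D40 Adipoq was at 0.556 (0.536 to 0.576) of its LepR-gated level in Col8a1-high cells, Hp at 0.575 and Cebpd at 0.587. In Graft_D19 Adipoq was at 0.559 and Lpl at 0.575. In Sham_D40 no member was called between the classes, with Adipoq at 0.848 and Hp at 0.717. In Ctrl only Cebpa was called, at 1.97 (1.55 to 2.47), and Pparg was at 0.619 with an interval across 1 (0.327 to 1.07). Lepr was at 0.823 to 1.09 in all 4 libraries. Of the 10 members, 3 were called lower in Graft_D40, 2 lower in Graft_D19, 0 in Sham_D40 and 1 higher in Ctrl. Of all measured genes 2.55%, 2.34%, 3.18% and 2.51% were lower in that order, and 2.78%, 3.82%, 3.735% and 6.95% higher. The 1 call in Ctrl is thus near the share of all genes. The classes were cut from the same cells by Col8a1, so these values describe and were not tested.

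Adipoq and Hp went down with Col8a1 within each library. From pool cells without a Col8a1 UMI to those with 20 or more per 10000, Adipoq went from 3431 to 1840.5 CPM in Ctrl, from 3360 to 2317 in Sham_D40, from 2957 to 947 in Graft_D19 and from 2179 to 696 in Graft_D40. Hp went from 9408 to 4366, from 6651 to 3887, from 4316 to 2243 and from 4589 to 1838.5 CPM. Both were thus lower at the high end in ungrafted and grafted libraries alike, although the last step holds 21 cells in Ctrl and 18 in Sham_D40. Lpl was different. It was at 2687 CPM at the low end and 3152 at the high end in Ctrl, and at 5334 and 5045.5 in Sham_D40. In Graft_D19 it was at 4732 and 1378 and in Graft_D40 at 2327 and 1213. Gas6 was higher at the high end in Ctrl (2061 and 2898 CPM), Sham_D40 (2967 and 4591) and Graft_D40 (1867 and 2476), and lower there in Graft_D19 (2661 and 2169). Even cells with 0 Col8a1 UMIs had less Adipoq in Graft_D40 than in Sham_D40, 2179 against 3360 CPM.

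**Figure D3:**
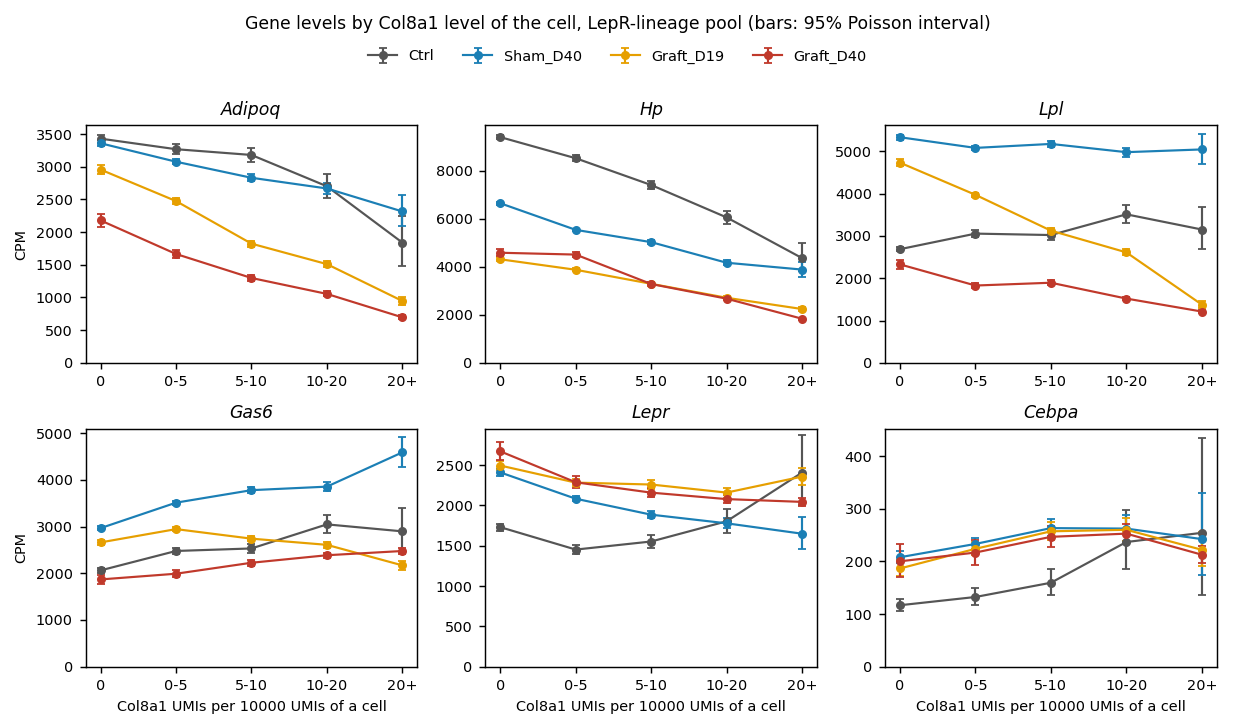
CPM of 6 genes (vertical axis, from 0) in pool cells sorted by their Col8a1 UMIs per 10000 (horizontal axis), with 95% Poisson intervals, 1 line for each library. The Adipoq and Hp lines slope down in all 4 libraries. The Lpl line ends higher than it starts in Ctrl, is level in Sham_D40 and slopes down in Graft_D19 and Graft_D40.

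In the pool of both classes 6 of 10 members were called lower in Graft_D40 than in Sham_D40 and 0 higher (3.92% of genes lower, 6.55% higher). In Graft_D19 over Ctrl 3 were lower and 1 higher (8.47% and 28.7%). The Col8a1-high class held 57.7% of pool UMIs in Graft_D40 and 9.02% in Sham_D40. The pool log2 ratio of Adipoq was -1.40. With class levels of Graft_D40 and class shares of Sham_D40 it was -1.03, and with levels of Sham_D40 and shares of Graft_D40 it was -0.11. For Lpl these values were -1.68, -1.45 and -0.03, and for Hp -0.93, -0.59 and -0.22. As arithmetic, exchanging levels alone gave most of the pool difference of these 3 genes. The larger share of Col8a1-high cells alone gave little of it at levels of Sham_D40. There the classes were close, with Col8a1-high Adipoq at 0.848 of its LepR-gated level, against 0.556 in Graft_D40. At levels of Graft_D40, its own shares in place of those of Sham_D40 moved Adipoq from -1.03 to -1.40. Lpl moved from -1.45 to -1.68 and Hp from -0.59 to -0.93. Levels within a class include its change of clusters.

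**Figure D4:**
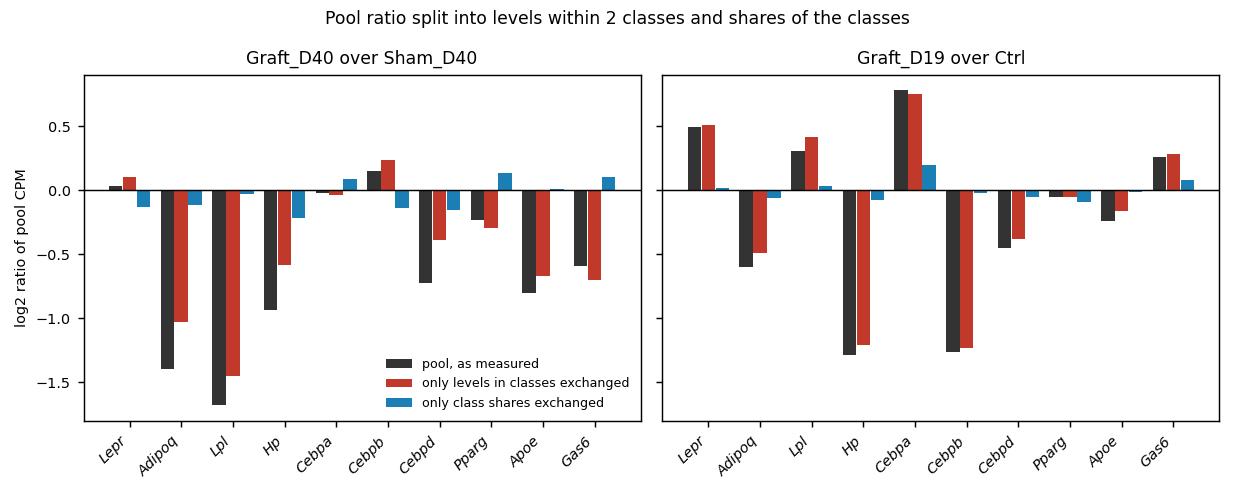
Log2 ratio of pool CPM (vertical axis) of the 10 genes for Graft_D40 over Sham_D40 (left) and Graft_D19 over Ctrl (right), as measured and with only class levels or only class shares exchanged between the 2 libraries. At day 40 the bars with levels exchanged reach -1.03 for Adipoq and -1.45 for Lpl, and those with shares exchanged stay between -0.22 and 0.13.

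Bone-forming cells held less of most members than LepR-gated cells. In Ctrl, Sham_D40 and Graft_D19, 9 of 10 were called lower there, all but Cebpb, and in Graft_D40 all 10, beside 26.6% to 59.9% of all genes called lower. In osteolineage-gated cells Adipoq was at 114.8 CPM in Ctrl and 69.1 in Sham_D40, and 33.2 in Graft_D19 and 34.6 in Graft_D40, and Lpl at 158.1, 136.3, 59.3 and 35.3 CPM. Hp was at 510.9, 286.6, 159.4 and 113.3 CPM, Apoe at 1110, 785, 501 and 361 CPM and Gas6 at 336.8, 299.5, 147.4 and 114.3 CPM. In all 5 genes both grafts were below both ungrafted libraries. Of 9 measured members 7 were called lower in Graft_D40 than in Sham_D40 and 0 higher, namely Adipoq, Lpl, Hp, Cebpa, Cebpd, Apoe and Gas6. Many other genes were lower too, 19.5% against 2.59% higher, and the median of all measured genes was -0.28. Cebpa was at 24.5, 29.0, 19.9 and 10.6 CPM, Cebpd at 193.8, 144.7, 106.5 and 52.3 CPM and Cebpb at 280.4, 79.1, 79.9 and 56.4 CPM. Lepr, at 137.4, 158.7, 114.1 and 110.3 CPM, was not called. In Graft_D19 over Ctrl 8 of 10 were lower (12.5% of genes lower, 12.9% higher), and in Sham_D40 over Ctrl 4 (9.93% and 17.5%), which were Adipoq, Hp, Cebpb and Pparg.

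Few cells carried these values. The 10 richest cells held 77.8% of Adipoq UMIs in osteolineage-gated cells of Graft_D40 and 69.5% in Sham_D40. With each cell thinned to 2000 UMIs the Adipoq log2 ratio turned to 0.47, not called. Depth differed within the class, with a median of 17943 UMIs per cell in Graft_D40, 12773.5 in Sham_D40 and 3986 in Ctrl. Clustering gave 2 clusters named osteolineage by their median marker scores. Cluster 12, led by Mmp9, Mmp13, Mepe and Dmp1, held Adipoq at 654 CPM in Sham_D40 and 192 in Graft_D40. Cluster 16, led by Cpz, Ifitm5, Entpd3 and Col1a1, held it at 57.6 and 17.5 CPM. Adipoq was thus lower in Graft_D40 in both, and cluster 12 with its higher level had 341 cells in Sham_D40 and 231 in Graft_D40. Cluster 12 was mixed. Among its cells, 106 in Sham_D40 and 32 in Graft_D40 were LepR-gated, and 44 and 20 were Col8a1-high. The part of these cells in its Adipoq values was not tested.

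Fibroblast-gated cells had few calls between Graft_D40 and Sham_D40, and only lower ones against Ctrl. Lepr was at 244.3 CPM in Ctrl and 136.5 in Sham_D40, and 106.8 in Graft_D19 and 157.1 in Graft_D40. Lpl was at 152.1, 94.0, 156.9 and 127.4 CPM and Cebpd at 179.8, 65.5, 84.3 and 87.7 CPM. Gas6 was at 354.9, 332, 380.6 and 366.7 CPM and Apoe at 414.8, 272.7, 435.6 and 256.2 CPM. Of 9 measured members Adipoq was called lower in Graft_D40 than in Sham_D40, on 16 UMIs against 115, and Cebpb higher, 1.57-fold (1.21 to 2.03), against 3.72% and 5.19% of genes. Graft_D19 over Ctrl gave 5 lower and 0 higher (6.14% and 6.48%), and Sham_D40 over Ctrl 7 lower and 0 higher (8.25% and 6.96%). Ctrl had 48 such cells, the 10 richest of which held 97.6% of Hp and 88.9% of Apoe UMIs. Pparg had 0 UMIs in Ctrl, where 3 counts equal 13.8 CPM, and 4 to 7 UMIs in the other libraries.

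Endothelium of the same libraries was read as background. There 8 of 10 members were called lower in Graft_D40 than in Sham_D40 and 0 higher, against 7.14% and 7.42% of genes. Adipoq was at 41.6 CPM in Sham_D40 and 12.1 in Graft_D40, Cebpb at 61.2 and 21.2 CPM, Hp at 69.2 and 18.8 CPM and Apoe at 3522 and 1591 CPM. Lepr and Gas6 were not called, with ratios of 0.713 and 0.833. Lower levels at day 40 were thus also measured outside LepR stroma, and the part of free RNA in the endothelial values was not tested.

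Few of the wider lipid and fat cell genes were called. In LepR-gated cells of Graft_D40 against Sham_D40, 15 of 17 adipogenic regulators were measured and 1 was higher and 1 lower, with a median log2 ratio of 0.04. The higher one was Klf4, an early regulator, at 97.5 and 56.9 CPM. The lower one, Klf15, was at 7.37 and 12.6 CPM and was named after its value was seen. Of 8 measured genes of the lipid droplet and lipolysis list Lipe was higher, and of 10 genes of fatty acid and triglyceride synthesis Fasn was higher, both under 20 CPM and named after their values were seen. Of 5 measured adipokines none was called, and of 7 brakes on adipogenesis Wnt5a was lower, at 16.9 and 25.6 CPM. No synthesis gene was called lower in LepR-gated or Col8a1-high cells, where 3.42% and 5.61% of all measured genes were. In osteolineage-gated cells 2 of 9 were, which is near the 19.5% of all genes called lower there.

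Of 12 measured lipid uptake and carrier genes, 4 were called lower. Abca1, which exports cholesterol from cells onto apolipoproteins, was at 45.1 CPM in LepR-gated cells of Ctrl and 73.5 in Sham_D40, and 51.3 in Graft_D19 and 28.2 in Graft_D40. Angptl4, an inhibitor of lipoprotein lipase, was at 142.6, 344.7, 177.4 and 166.3 CPM, so that Sham_D40 alone was high. Fabp5, a fatty acid carrier, was at 11.9 CPM in Graft_D40 and 20.9 in Sham_D40. The last of the 4, Fabp4, was at 121.4 and 186.8 CPM and was named after its value was seen. Endothelium had less of the mature fat cell list that holds it as well. In Col8a1-high cells Abca1 was at 42.9, 78.8, 27.7 and 30.1 CPM.

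Of 10 measured receptors and partners of the members 1 was called, Axl, a receptor of Gas6. It was at 26.6 CPM in LepR-gated cells of Ctrl and 33.1 in Sham_D40, and 41.5 in Graft_D19 and 87.4 in Graft_D40, 2.64-fold (2.32 to 2.997) above Sham_D40. In Col8a1-high cells it was at 39.8, 28.3, 60.6 and 111.8 CPM. The ligand and this receptor thus differed in opposite directions between Graft_D40 and Sham_D40. Against Ctrl, Gas6 was not called in either class. Immediate early genes had 4 of 16 higher and 0 lower in LepR-gated cells, these being Nr4a1, which was under 20 CPM, Klf2 at 245.8 and 115.0, Ier2 at 154.6 and 73.8 and Jun at 743.8 and 457.4 CPM. In Col8a1-high cells 8 of 16 were higher and 1 lower. Without cells above the 75th percentile of immediate early share, the log2 ratio of Adipoq was -0.95 in LepR-gated and -1.54 in Col8a1-high cells, that of Lpl -1.33 and -1.84 and that of Apoe -0.66 and -0.98. Those 3 genes kept their calls, and Gas6 did so in LepR-gated cells at -0.65 but not in Col8a1-high cells at -0.58.

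Over the 16 class and library values most members shared one pattern, from which Cebpb stood apart. Pearson correlations of log2(CPM + 1) were 0.991 for Hp with Apoe and 0.990 for Lpl with Gas6, and 0.297 to 0.685 for Cebpb with the other 9. Among 8995 genes at 20 CPM or more in at least 1 value, those most like Adipoq were Kng1 (0.992), Trf (0.986) and Slc26a7 (0.986). Most like Lepr were Serpina3g (0.989), Itga1 (0.987) and Adcy2 (0.984), and most like Apoe were Vcam1 (0.995), Shroom3 (0.993) and Cxcl12 (0.992). Vcam1 and Cxcl12 are gate markers. Most like Cebpb were Cox16 (0.962), H3f3b (0.949) and Ndufc2 (0.938). The 16 values share 4 libraries and the gates, so these figures describe a pattern of classes and carry no p.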

How the data were processed

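RNA was measured in 4 libraries of sorted mouse femur marrow cells. The authors deposited unnormalized UMI counts for every gene in each barcode. Cell Ranger 5.0.0 wrote them, per the file headers. Version 3.1.0 and mm10 stand in the submitters' processing notes. Gene positions are from GENCODE vM21 on that build.

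Cells with 500 genes, 1000 UMIs and at most 10% mitochondrial UMIs were kept, and doublets called by Scrublet (scanpy 1.11.5, rate 6%) were removed. Marker scores averaged log-scaled levels. UMIs were summed per class and library and divided by the class total (CPM). Intervals are exact Poisson, conditional binomial and, for shares, Clopper-Pearson ones, at 95%, and cover counting error only. Genes at a mean of 5 CPM were measured, 1 CPM was added before log2 ratios were taken, and the calculation was tested on simulated data. LepR-gated cells held 6809552 UMIs in Ctrl and 18173534 in Sham_D40, and 11764062 in Graft_D19 and 4612980 in Graft_D40.

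The members and the gene lists were chosen with earlier results of these data known. Besides the members, the text names genes of the lists called in LepR-gated cells of Graft_D40 over Sham_D40 at 20 CPM or more, at most 4 a list by size, and the 3 genes most like each of 4 members. Klf15, Lipe, Fasn, Nr4a1 and Fabp4 were named outside this rule, after their values were seen. Comparisons were Graft_D40 with Sham_D40 and Graft_D19 with Ctrl, with Sham_D40 over Ctrl as the scale of ungrafted libraries. Alternatives changed scaling, thresholds, cell filters, gates, clustering, cell weights, depth and comparator. Antibody features were left out of all totals. 1 gene of the lists is not reported here.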

Additional observations from a re-analysis of the deposited data

Results flagged for a closer look

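2 of the 4 libraries hold reads of antibody features that no comparison above uses. In Sham_D40 feature B0301 had a median of 343 UMIs per cell and B0302 of 7. In Graft_D40 feature B0302 had a median of 575 UMIs per cell and B0301 of 1. The tags were thus each high in 1 library, and Ctrl and Graft_D19 list no antibody feature. No label says what the tags mark. Graft_D40 over Sham_D40 and Graft_D19 over Ctrl each compare libraries that are alike in this. Sham_D40 over Ctrl, Graft_D40 over Ctrl and Graft_D19 over Sham_D40 do not, and the part of this in the results was not tested.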

How the results depend on the processing

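Counts of members called were recomputed under 19 alternatives in LepR-gated and Col8a1-high cells, 18 for Sham_D40 over Ctrl and 17 elsewhere, where the Col8a1 cut has no bearing. Calling at 2-fold left 1 member of 4 in LepR-gated, 2 of 6 in Col8a1-high and 2 of 6 in pool cells for Graft_D40 over Sham_D40, and 1 of 2 in fibroblast-gated cells. For Graft_D19 over Ctrl it left 2 of 4 in Col8a1-high and 2 of 4 in pool cells, and for Sham_D40 over Ctrl 8 of 19 over the 4 classes, where thinning to 2000 UMIs gave 12. With the other ungrafted library as comparator, Graft_D19 had 1 call in place of 3 in LepR-gated cells, 1 in place of 4 in the pool, 3 in place of 5 in fibroblast-gated and 5 in place of 8 in osteolineage-gated cells, and Graft_D40 had 6 in place of 2 in fibroblast-gated cells. In osteolineage-gated cells clusters also gave 5 for Graft_D19. In fibroblast-gated cells leaving out the 10 cells richest in a gene gave 1 for Graft_D19 and 4 for Graft_D40, thinning gave 2 for Graft_D19, and a stricter cut 4 for Graft_D40. All other counts stayed within 1.5 times. The alternative that changed the CPM added before log2 ratios could not change a count, because calls do not use it.

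Adipoq and Lpl were called lower in Graft_D40 under 19 of 19 alternatives in Col8a1-high cells and 18 of 19 in LepR-gated cells. Apoe was called under 18 and 15, Gas6 under 14 and 17, and Cebpd in Col8a1-high cells under 15. Hp in LepR-gated cells, not called, passed the threshold under 9 of 19. Some of the 19 could not change these calls. The CPM added before log2 ratios does not enter a call, and these genes lay far above every CPM minimum tried. Called log2 ratios changed sign in 15 cases. With the other ungrafted library as comparator these were, for Graft_D19, Cebpb at 0.26 in LepR-gated, 0.25 in pool, 0.37 in Col8a1-high, 0.014 in osteolineage-gated and 0.10 in fibroblast-gated cells, Cebpa at -0.045 in LepR-gated and -0.029 in pool cells, and Adipoq at 0.76, Hp at 0.14 and Cebpd at 0.36 in fibroblast-gated cells, and for Graft_D40 Cebpb at -1.17 in fibroblast-gated cells. Thinning turned Adipoq in osteolineage-gated cells of Graft_D40 to 0.47, clusters turned Lpl in osteolineage-gated cells of Graft_D19 to 0.078, and leaving out the 10 richest cells turned Pparg there to 0.21 and Cebpd in fibroblast-gated cells to 0.34. The cause was not tested. No paired analysis was possible because each group has 1 library. Depth limits Pparg and Cebpa in fibroblast-gated cells, with 0 to 42 UMIs per library, and Pparg in osteolineage-gated cells, with 13 to 24.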
